A study of Mus musculus with 6 samples.

Results

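A set of 10 imprinted genes, among them the genes at the Sgce locus, were examined in tumorspheres of the mouse ovarian cancer lines ID8 and KMF. They are Peg3, Sgce, Peg10, Ppp1r9a, Plagl1, Ndn, H19, Kcnq1ot1, Zrsr1 and Mcts2, and they make up 10 of the 7320 genes that the deposited table lists. The genes were chosen by name with their counts and their KMF against ID8 differences already known, and the table itself had been selected on that same contrast. The differences between the lines are therefore given as a description. No p-value is given for a member. Calls of members are counted to set them beside the share called among all genes, or to show how far the processing moves them. ID8 cells derive from transformed ovarian epithelium of C57Bl6 mice, and KMF cells (labelled ID8-IP) are one line recovered from the ascites of mice injected with ID8. Both lines were untreated and grew for 5 days in suspension in serum-free medium. Each line gave 3 libraries, at passages 23, 24 and 35 for ID8 replicates 1 to 3 and at passages 14, 17 and 22 for KMF replicates 1 to 3. Passage therefore differed between the lines as well as within them.

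Imprinted genes are transcribed mainly from the copy inherited from one parent. The choice is set by differentially methylated regions, which carry DNA methylation on one parental copy only, and many imprinted genes sit in domains that share such a region. PEG3 and PLAGL1 are known from human ovarian tumours as imprinted genes that are often silent there. The reads were not split by parental allele, so the expressed copy was not measured, and the parental origin named here is background knowledge.

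The libraries held between 23108407 and 33212313 fragments on genes, so that a level of 3 counts was 0.0903 to 0.130 CPM (counts in 1000000 fragments of the library total). FPKM is the number of fragments per kilobase of listed gene length and per 1000000 fragments. Of the ovarian surface epithelium markers examined, 6 of 10 were in the table, with a summed level of 146 to 221 FPKM in ID8 and 160 to 212 in KMF. That sum was carried by Wt1 and Msln, and single markers moved apart. Cdh1 (E-cadherin), Upk3b and Krt7 were lower in KMF, with log2 fold changes of -3.55 ± 0.35, -3.88 ± 0.57 and -2.55 ± 0.39 (SE), and Wt1 was lower by a smaller difference of -0.45 ± 0.14, with a call lost in 3 of 15 alternatives. Msln (mesothelin) was higher, by 1.45 ± 0.13, and Upk1b did not pass the threshold. The median over the 6 was -1.50. Fibroblast markers were listed for 4 of 8 genes (Col1a1, Col3a1, Pdgfra and Dcn), with a summed level of 77.3 to 107 FPKM in ID8 and 13.5 to 25.9 in KMF. For leukocytes 1 of 10 markers was listed, Cd74, at 0.857 to 1.59 FPKM in ID8 and 0.215 to 0.391 in KMF. For endothelium 2 of 6 were listed, Kdr, which had 0 counts in every KMF library, and Tek, and their sum was at most 0.0877 FPKM in ID8 and 27.7 to 47.6 in KMF. The part of these markers in the levels below was not tested. In bulk RNA, fewer cells with a transcript and less transcript per cell cannot be told apart.

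Promoter windows are shown for the 3 members with 0 counts in all KMF libraries (Peg3, Plagl1 and Ndn) and for a pair of members with RNA in both lines (Mcts2 and Kcnq1ot1), so that their CpG content can be compared. Windows run from 250 bases before to 50 after the RefSeq start on GRCm38.p6, and 7 of the 10 members had one. They lie at chr7:6730370-6730669 (minus strand) for Peg3, chr10:13090582-13090881 (plus) for Plagl1, chr7:62348027-62348326 (plus) for Ndn, chr2:152686898-152687197 (plus) for Mcts2 and chr7:143296498-143296797 (minus) for Kcnq1ot1. Each is printed 5′ to 3′ with every CG in capitals.

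Peg3: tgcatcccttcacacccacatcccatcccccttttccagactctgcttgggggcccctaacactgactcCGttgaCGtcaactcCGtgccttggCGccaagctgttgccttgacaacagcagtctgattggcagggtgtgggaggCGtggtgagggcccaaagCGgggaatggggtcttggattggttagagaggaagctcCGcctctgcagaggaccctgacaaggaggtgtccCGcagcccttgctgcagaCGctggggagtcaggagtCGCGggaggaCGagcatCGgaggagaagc

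Plagl1: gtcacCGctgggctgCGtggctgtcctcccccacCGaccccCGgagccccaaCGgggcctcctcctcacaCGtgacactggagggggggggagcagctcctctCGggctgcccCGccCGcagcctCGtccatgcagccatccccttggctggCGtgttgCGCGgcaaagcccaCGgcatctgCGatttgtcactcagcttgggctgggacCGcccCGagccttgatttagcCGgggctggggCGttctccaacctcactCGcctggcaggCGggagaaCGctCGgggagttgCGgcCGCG

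Ndn: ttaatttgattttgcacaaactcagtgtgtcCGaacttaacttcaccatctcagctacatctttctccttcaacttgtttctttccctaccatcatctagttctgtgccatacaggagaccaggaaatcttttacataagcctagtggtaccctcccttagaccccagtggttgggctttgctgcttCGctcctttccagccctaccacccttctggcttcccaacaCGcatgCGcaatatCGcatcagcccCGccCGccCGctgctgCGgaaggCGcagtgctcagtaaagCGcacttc

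Mcts2: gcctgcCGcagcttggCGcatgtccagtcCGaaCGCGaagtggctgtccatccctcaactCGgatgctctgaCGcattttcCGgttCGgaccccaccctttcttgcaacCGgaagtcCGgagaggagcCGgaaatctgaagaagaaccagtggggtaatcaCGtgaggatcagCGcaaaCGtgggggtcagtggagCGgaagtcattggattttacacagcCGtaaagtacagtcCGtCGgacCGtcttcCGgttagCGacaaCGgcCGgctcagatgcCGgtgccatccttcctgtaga

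Kcnq1ot1: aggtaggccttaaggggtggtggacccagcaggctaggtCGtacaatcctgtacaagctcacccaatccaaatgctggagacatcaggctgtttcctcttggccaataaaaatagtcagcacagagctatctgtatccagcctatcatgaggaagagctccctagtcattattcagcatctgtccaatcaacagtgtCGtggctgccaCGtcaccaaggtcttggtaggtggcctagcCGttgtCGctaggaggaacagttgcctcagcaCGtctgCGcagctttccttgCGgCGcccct

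The windows held 13 CG for Peg3, 26 for Plagl1, 11 for Ndn, 25 for Mcts2 and 9 for Kcnq1ot1, against a median of 7 over 32851 mouse windows of the same length. At least as many CG as in Plagl1 were found in 16.9% of all windows, and at least as many as in Kcnq1ot1 in 45.8%. The value of Mcts2 lay within the range of the 3 members with 0 counts in KMF, 11 to 26, and that of Kcnq1ot1 lay below it. Windows of Ppp1r9a (2 starts, with 48 and 10 CG) and of Zrsr1 (10 CG, 1210 bases from the listed start) are not printed, because one gene has several starts and the window of the other does not cover the listed start. The Peg3 window shared 263 of its 300 bases with that of Usp29, a paternally expressed deubiquitinase gene that starts in the opposite direction and was not analysed here. It held 1 match to GGGGCCCC, the motif of the PLAGL1 zinc finger protein, which 1.08% of all windows contain on either strand. The hexamer TGCCGC, bound when methylated by the imprint protector ZFP57, occurred once in the Plagl1 window and once in that of Mcts2, and in 11.6% of all windows. GCCATNTT, the core of the YY1 motif, was in none of the 5 windows and in 6.05% of all. Each motif was searched on both strands.

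Expression of the members is taken first over the whole group. In KMF, 7 of the 10 had 3 counts or fewer in every library, where 385 of all 7320 listed genes (5.26%) did. These were Peg3, Sgce, Peg10, Ppp1r9a, Plagl1, Ndn and H19. Zrsr1 and Mcts2 were lower in KMF but remained expressed, and Kcnq1ot1 was higher. The libraries of the lines did not overlap in CPM for any of the 10 members, as for 96.5% of all listed genes. A fit of the listed genes with edgeR retained 9 members. Ndn did not pass its filter on low counts, and 6 of the members that did had 3 counts or fewer in every KMF library, so that they passed through their ID8 counts. With an adjusted p-value under 0.05, 8 members were lower and 1 was higher, against 50.2% of all fitted genes called lower and 49.7% called higher, since the table holds almost no other genes. Nothing is read from these counts. The median log2 fold change was -4.99 over the 9 fitted members, -4.73 with Peg3 and Plagl1 set to the limit that 0 counts allow, and -0.23 over all fitted genes.

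**Figure D1:**
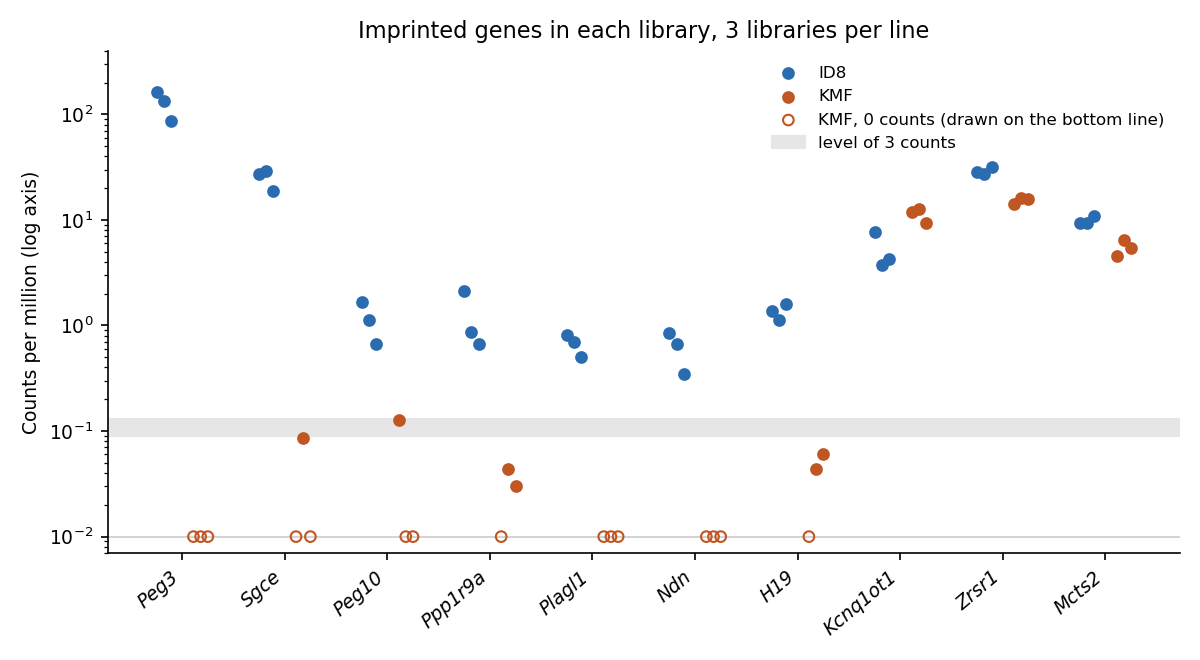
CPM (log axis) of the 10 members in each of the 3 ID8 and 3 KMF libraries. Open circles on the bottom line are KMF libraries with 0 counts and the grey band is the level of 3 counts; the 7 members on the left lie at or under that band in KMF, and Kcnq1ot1 is the member with higher KMF points.

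Peg3 (ENSMUSG00000002265, chr7:6703892-6730421, minus strand) encodes a paternally expressed protein with many Krüppel-type zinc fingers. It had the highest mean FPKM of the members in ID8, although Mcts2 was above it in replicate 3, with FPKM for Peg3 of 18.9, 15.2 and 9.99 in replicates 1 to 3. The corresponding counts were 4847, 3195 and 2229, and all 3 KMF libraries held 0. The limit set by 0 counts was at most 0.0149 FPKM in any of them. With 3 counts per library as the floor, Peg3 was at least 1104-fold lower in KMF. Its nearest listed neighbours, the zinc finger genes Zfp28 and Zfp418, lie 307258 bases before and 440908 bases after it. Both were also lower in KMF and kept RNA there, with log2 fold changes of -1.34 ± 0.23 and -1.37 ± 0.35 (SE). Usp29, Zim1, Zim3 and Zfp264 of the same domain were not analysed here.

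The Sgce locus on chromosome 6 came next. Sgce (ENSMUSG00000004631, chr6:4674350-4747204, minus strand) encodes epsilon-sarcoglycan, a membrane protein of the dystrophin-associated complex, from the paternal copy. ID8 replicates 1 to 3 had 804, 708 and 486 counts and FPKM of 12.3, 13.3 and 8.56. KMF replicate 2 had 2 counts, and the other two KMF libraries had 0. Over pooled counts the ID8 to KMF ratio was 1007, with a 95% interval from 278 to 8319 that covers counting error only. The ratio rests on the 2 counts of KMF replicate 2. Without that library all KMF counts of Sgce are 0, and the fitted log2 fold change, which then depends on the prior count, went from -9.69 to -12.4. Without KMF replicate 3 it was -8.98. Between Sgce and Peg10 lie 101 bases, and the genes run away from each other.

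Peg10 (ENSMUSG00000092035, chr6:4747306-4760517, plus strand) is a paternally expressed gene derived from a retrotransposon and needed for the placenta. It was low in ID8, with 49, 27 and 17 counts (0.249, 0.168 and 0.0994 FPKM). In KMF it had 3, 0 and 0 counts, which gives a ratio of ID8 to KMF of 31.2 (95% counting interval 10.4 to 154). All 3 KMF counts came from replicate 1, and without that library the fitted log2 fold change went from -4.73 to -7.95, a value that again depends on the prior count. Without KMF replicate 3 it was -4.001. Per gene length, Sgce at 11.4 ± 2.49 FPKM was far above Peg10 at 0.172 ± 0.0751 in ID8 (SD, n = 3 each), although they share the region between their starts.

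Ppp1r9a (ENSMUSG00000032827, chr6:4902917-5165661, plus strand) encodes neurabin, an actin-binding scaffold of protein phosphatase 1, and is biased to the maternal copy in some tissues. Its counts were 63, 21 and 17 in ID8 and 0, 1 and 1 in KMF. The ratio of ID8 to KMF was 50.9 (95% counting interval 13.7 to 426), and ID8 replicate 1 held most of the ID8 counts. Without that library the fitted log2 fold change went from -5.35 to -4.66.

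Within 2 Mb of Sgce, 7 of 21 protein-coding genes of GENCODE release M21 were in the table. Of these 6 were lower in KMF and 1 higher. In the fit 5 were called lower and 1 higher, Asb4 not being fitted, with a median log2 fold change of -3.80, beside 50.2% lower, 49.7% higher and a median of -0.23 over all fitted genes. Of the 5 called lower, 3 are members, so neither the count nor the median is independent of how the members were chosen. On the whole of chromosome 6, 66.8% of 364 listed genes were lower in KMF. Casd1, which encodes a sialic acid O-acetyltransferase, begins 146 kb before the Sgce start and had a log2 fold change of -1.04 ± 0.12 (SE). Pon3, an imprinted gene in the placenta that encodes a paraoxonase, begins 509 kb beyond it. It had 614, 602 and 461 counts in ID8 and 42, 85 and 98 in KMF, and its fitted log2 difference was -2.88 ± 0.27 (SE). Asb4, a further gene of the domain, had 9, 12 and 5 counts against 1, 1 and 2. Dync1i1, a dynein intermediate chain gene 978 kb from Sgce, was higher in KMF, by 0.66 ± 0.10 (log2 fold change ± SE). Over pooled counts the ID8 to KMF ratio was 2.10 for Casd1, 7.51 for Pon3 and 6.55 for Asb4 (95% counting interval 2.27 to 25.8 for Asb4). Beside Pon3, Peg10 had a log2 fold change of -4.73 ± 0.87 (SE). Counting intervals leave out the spread between cultures. Whether Sgce, Peg10 and Ppp1r9a, chosen with their values known, differ from their neighbours was not tested. Casd1 and Pon3, on either side of these 3 genes, kept RNA in KMF. The other 14 genes of the window, among them Tfpi2, Calcr and Pon2 of the imprinted list, were not analysed here.

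**Figure D2:**
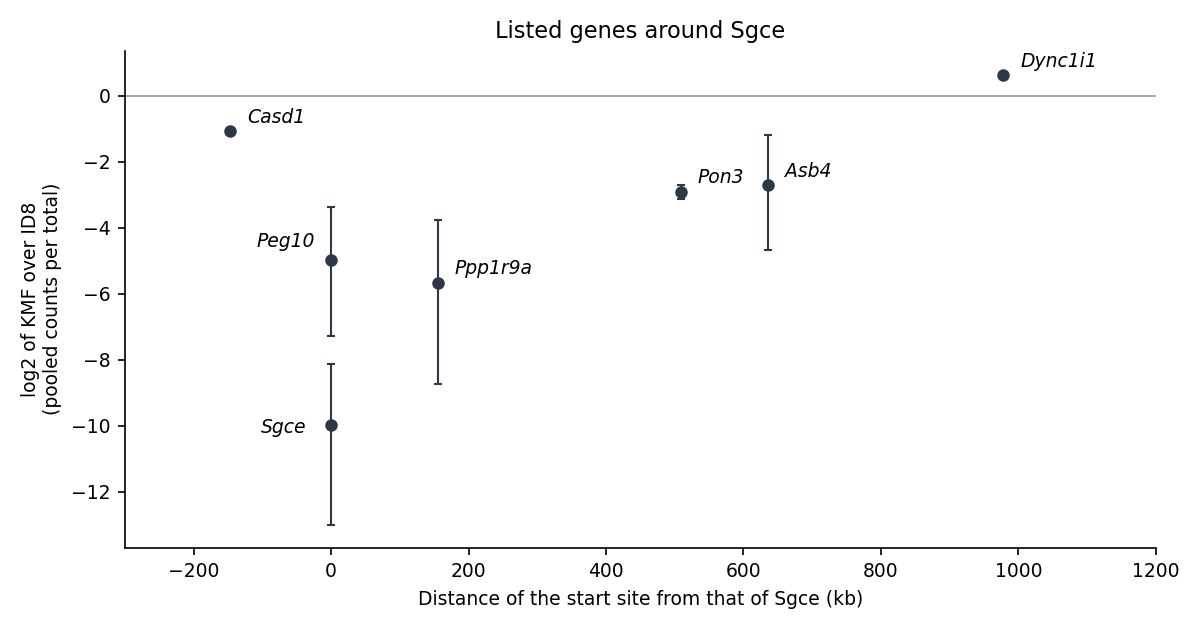
Log2 ratio of KMF to ID8 in pooled counts per library total (y axis) for the 7 listed genes within 2 Mb of Sgce, by the distance of their start sites from that of Sgce in kb (x axis, in the direction of increasing coordinates). Bars are 95% counting intervals; Sgce, Peg10 and Ppp1r9a are lowest and Dync1i1 is the gene above 0.

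Plagl1 (ENSMUSG00000019817, chr10:13090691-13131694, plus strand) encodes a paternally expressed zinc finger transcription factor that restrains growth and acts on other imprinted genes. It had 24, 17 and 13 counts in ID8 (0.155, 0.134 and 0.0963 FPKM) and 0 in every KMF library. At this depth it was at least 5.83-fold lower in KMF, and a larger reduction could not be measured. Its closest listed neighbour before it, the splicing factor gene Sf3b5, was higher there by 0.27 ± 0.09 on the log2 scale (SE). Phactr2, the nearest one after it, was also lower in KMF but too low to be fitted.

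Ndn (ENSMUSG00000033585, chr7:62348277-62349928, plus strand) encodes necdin, a MAGE family growth suppressor that is expressed from the paternal copy in the region matching the human Prader-Willi locus. It had 25, 16 and 9 counts in ID8 and 0 in all KMF libraries, a level at least 5.36-fold lower. Mkrn3, a paternally expressed makorin gene 67664 bases away, stayed expressed, with 130, 59 and 96 counts in ID8 and 36, 47 and 76 in KMF. Its log2 fold change was -0.81 ± 0.29 (SE), and the call was lost in 5 of 15 alternatives. A330076H08Rik, the nearest listed gene on the other side, was higher by 1.21 ± 0.45 (log2, SE). Magel2, Snrpn, Snurf, Peg12 and Ube3a of this domain were not analysed here.

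A pair of members are long noncoding RNA genes that lie in neighbouring domains on distal chromosome 7. H19 (ENSMUSG00000000031, chr7:142575529-142578143, minus strand), the maternally expressed partner of Igf2, had 40, 27 and 41 counts in ID8 and 0, 1 and 2 in KMF. The ID8 to KMF ratio was 36.3 (95% counting interval 12.1 to 179). It rests on 3 KMF counts, and without KMF replicate 3, which held 2 of them, the fitted log2 fold change went from -4.99 to -5.63. Its nearest listed neighbours were Tnnt3, which was lower in KMF and too low to be fitted, and Tspan32, with a difference of -1.03 ± 0.32 on the log2 scale (SE). Igf2 was not analysed here.

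Kcnq1ot1 (ENSMUSG00000101609, chr7:143212155-143296549, minus strand) is transcribed from the paternal copy antisense to Kcnq1 and is known to silence neighbours in cis. It had 224, 90 and 109 counts in ID8 and 279, 290 and 308 in KMF. FPKM averaged 0.0615 ± 0.0249 over the ID8 libraries and 0.133 ± 0.0204 over those of KMF (SD, n = 3 per line), low values that are spread over a listed length of 84395 bases. The log2 fold change was 1.15 ± 0.28 (SE), and ID8 replicate 1 was the ID8 library closest to KMF. Kcnq1, a potassium channel gene on the opposite strand, spans the whole of Kcnq1ot1 and shares 121 of its exonic bases. Whether counting used strand is not given in the sources used here, so unspliced Kcnq1 RNA and Kcnq1ot1 cannot be told apart. Kcnq1 itself had 10, 9 and 41 counts in ID8 and 69, 39 and 161 in KMF (log2 fold change 2.09 ± 0.64, SE), and its call was lost in 2 of 14 alternatives. Most of its ID8 counts came from replicate 3, without which the log2 fold change was 3.18.

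The domain around Kcnq1ot1 was the one with the most listed genes. Of its 10 genes on the imprinted list, 9 were in the table, 8 higher and 1 lower in KMF, while 61.1% of the 568 listed genes on chromosome 7 were higher. Phlda2, a growth restraining gene of the placenta, had 3, 0 and 0 counts in ID8 and 11, 13 and 14 in KMF. Its log2 fold change of 3.56 ± 0.81 (SE) rests on ID8 replicate 1, without which all ID8 counts are 0 and the fitted value, set in part by the prior count, was 6.67. Slc22a18, an organic cation transporter gene, had a log2 fold change of 0.74 ± 0.23 with a call that was lost in 2 of 15 alternatives. Values were smaller for the others, with Tssc4 at 0.52 ± 0.08, Osbpl5 at 0.37 ± 0.08 and Nap1l4 at 0.35 ± 0.06 (log2, SE). Cd81, a tetraspanin gene, had the smallest, 0.20 ± 0.07, and its call was lost in 6 of 15 alternatives. Cdkn1c, the gene of the cell cycle inhibitor p57, went the other way, with 34, 14 and 24 counts in ID8 and 1, 1 and 7 in KMF, which gave a log2 difference of -2.94 ± 0.60 (SE). KMF replicate 3 held 7 of the 9 KMF counts, and without it the difference was -4.17.

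Zrsr1 and Mcts2 are paternally expressed retrocopies of X-linked genes, and each lies inside another gene. Zrsr1 (ENSMUSG00000044068, chr11:22973215-22976496, plus strand) encodes a relative of the splicing factor U2AF35. Counts were 835, 653 and 821 in ID8 and 331, 373 and 522 in KMF. FPKM averaged 8.87 ± 0.782 over the ID8 libraries and 4.66 ± 0.339 over those of KMF (SD, n = 3 per line). On the log2 scale KMF differed from ID8 by -0.89 ± 0.11 (SE). Commd1, its host on the opposite strand, shares 412 of its exonic bases (9.17%) and had a log2 fold change of -0.68 ± 0.13 (SE). Reads in that overlap cannot be assigned without strand. Tmem17 and Fam161a, the listed genes to either side, were lower as well, by -1.05 ± 0.23 and -1.03 ± 0.30 (log2, SE). On chromosome 11, 72.7% of 638 listed genes were lower in KMF.

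Mcts2 (ENSMUSG00000042814, chr2:152687035-152687951, plus strand) encodes a relative of the translation factor MCTS1. It had 273, 224 and 280 counts in ID8 and 107, 150 and 181 in KMF. FPKM averaged 10.7 ± 1.03 over the ID8 libraries and 5.99 ± 1.07 over those of KMF (SD, n = 3 per line). On the log2 scale KMF differed from ID8 by -0.80 ± 0.18 (SE). Its listed neighbours went the other way, Rem1 by 2.03 ± 0.34 and Id1 by 1.29 ± 0.10 (log2, SE). It lies within H13 on the same strand without shared exonic bases. H13 and the parent genes Mcts1 and Zrsr2 were not analysed here, and reads that fit both a retrocopy and its parent could have been split in the counting.

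Levels within ID8 were compared next, since the ID8 libraries span passages 23 to 35. The lowest ID8 level of 6 members (Peg3, Sgce, Peg10, Ppp1r9a, Plagl1 and Ndn) was that of replicate 3, at passage 35. Over all listed genes 37.9% were lowest in that library, and over the 385 genes with 3 counts or fewer in every KMF library it was 52.5%. In replicate 3, Peg3 stood at 67.9% of its ID8 mean, Sgce at 75.2%, Peg10 at 57.7%, Ppp1r9a at 54.2%, Plagl1 at 75.1% and Ndn at 56.5%. H19 was highest in the same library, at 118% of its mean, as were Zrsr1 at 110% and Mcts2 at 111%. Zrsr1 and Mcts2 varied least within ID8, by 1.18-fold each between lowest and highest library, and Ppp1r9a most, by 3.23-fold. With 1 library at that passage, passage and library cannot be told apart, and the lowest ID8 count of any of the 7 nearly absent members, 9 for Ndn, remained above its KMF counts of 0.

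**Figure D3:**
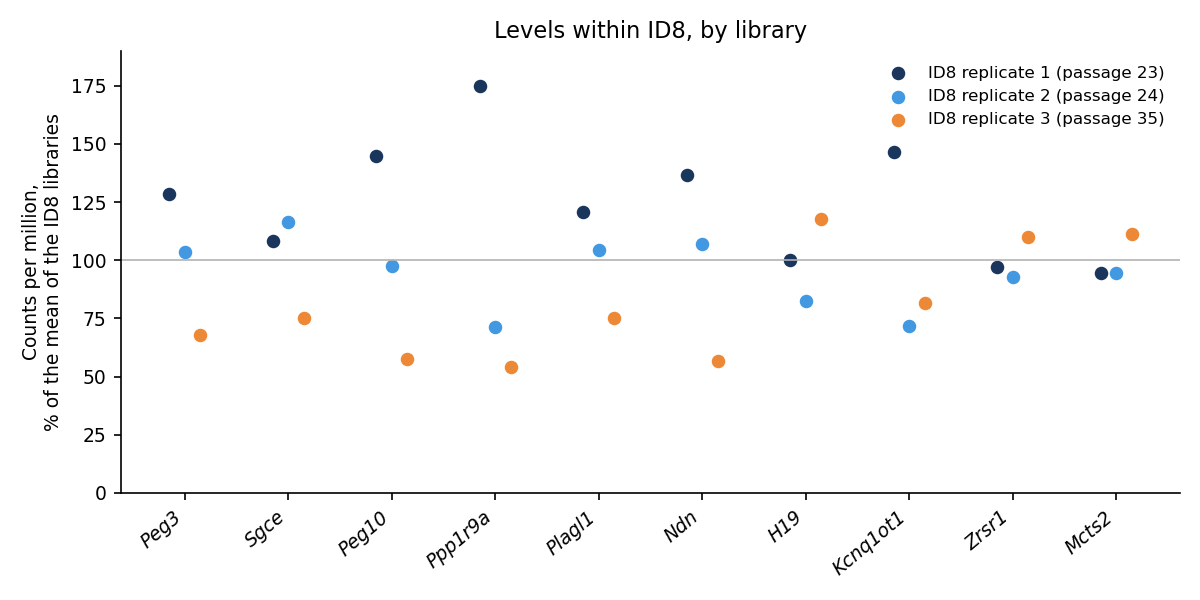
Level of each member in ID8 replicates 1, 2 and 3 (passages 23, 24 and 35) as a percentage of the mean of the 3 ID8 libraries in CPM. Of the 10 members, 6 have their lowest point in replicate 3, while H19, Zrsr1 and Mcts2 have their highest there.

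The members were then set beside a wider list of imprinted genes. The list has 66 genes, all 10 members among them, and 29 were in the table. Of these 20 were lower and 9 higher in KMF. In the fit 17 of 26 genes were called lower and 9 higher, with a median log2 fold change of -0.74 against -0.23 over all fitted genes. Of these 26 genes 9 are members, so neither the counts nor the median is independent of how the members were chosen. As 50.2% of all fitted genes were called lower and 49.7% higher, being called says little of a gene here, and only the direction and size are described. Among genes expressed from the paternal copy 12 of 32 were listed, with 11 lower and Kcnq1ot1 higher. Among genes of the maternal copy 17 of 34 were listed, with 9 lower and 8 higher, 7 of the 8 being neighbours of Kcnq1ot1. Both counts include the members, which were chosen with their values known, and the difference between them was not tested. The only listed paternal genes that are not members were Ddc, Sfmbt2, Mkrn3 and Rasgrf1.

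Outside the domains already described, Rasgrf1, a paternally expressed Ras exchange factor gene, was lower in KMF. It had 129, 85 and 142 counts in ID8 and 6, 1 and 9 in KMF, and its fitted log2 difference was -4.43 ± 0.46 (SE). Sfmbt2, a Polycomb group gene, had 42, 49 and 10 counts against 8, 14 and 4, with a call that was lost in 7 of 14 alternatives and a log2 fold change of -1.87 that was -2.46 without KMF replicate 2. Ddc, the gene of aromatic amino acid decarboxylase, had 7, 18 and 8 counts against 0 in KMF and was not fitted. Smaller reductions were found for Copg2 (-0.57 ± 0.07), Trappc9 (-0.52 ± 0.07) and Blcap (-0.33 ± 0.11), each a log2 fold change ± SE. The call of Blcap was lost in 3 of 15 alternatives. Gnas, the gene of a stimulatory G protein subunit, was higher, by 0.82 ± 0.13. Listed genes thus ran from absence in KMF to an increase, and no single direction held across domains.

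**Figure D4:**
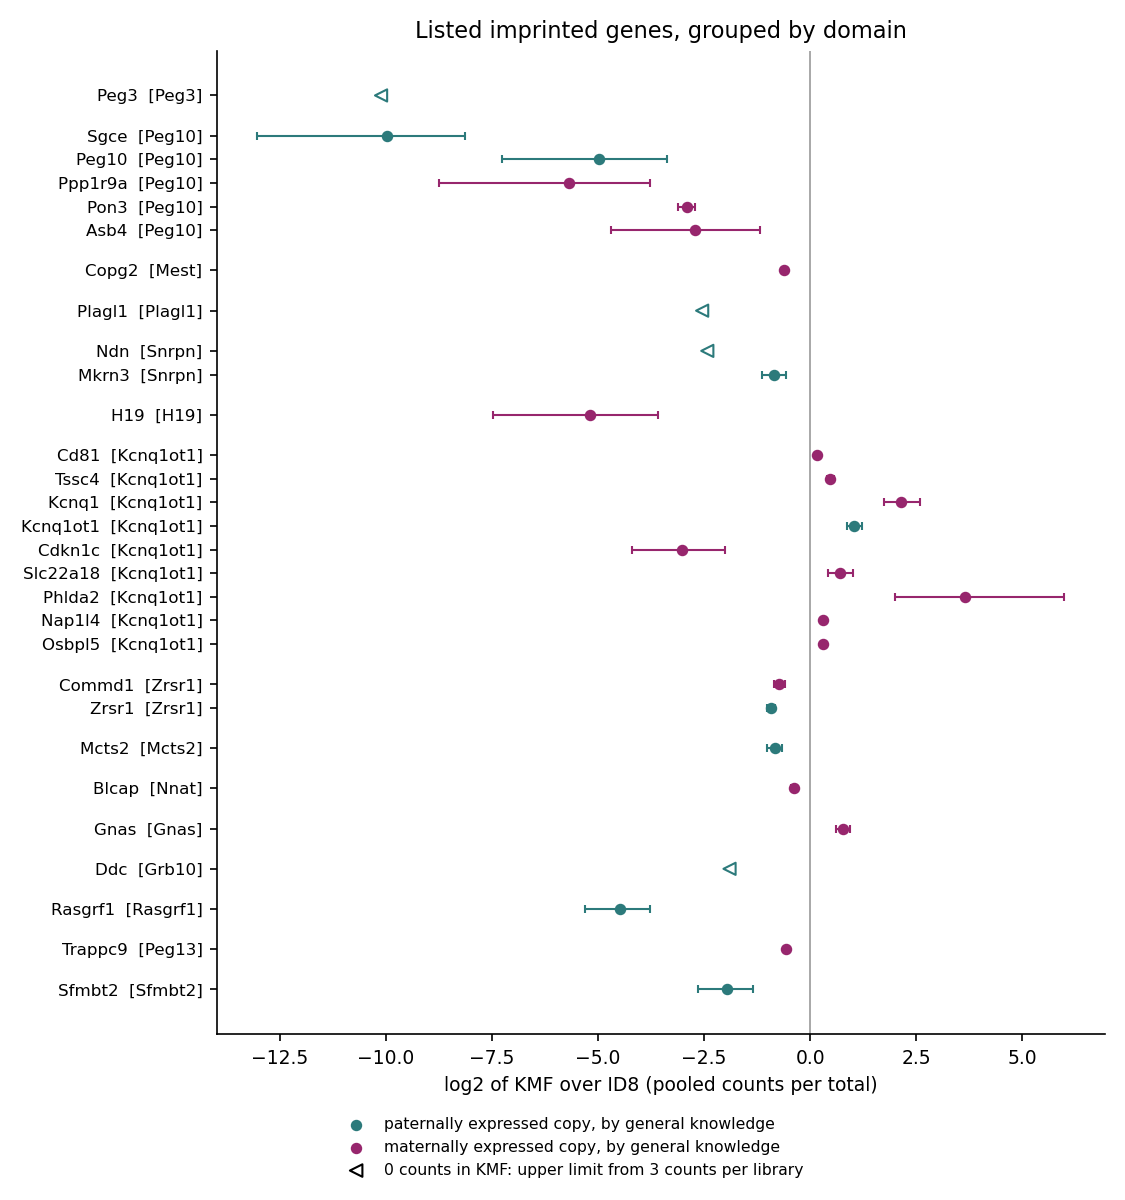
Log2 ratio of KMF to ID8 in pooled counts per library total (x axis) for the 29 listed imprinted genes, one row per gene with its domain in brackets. Bars are 95% counting intervals, open triangles mark genes with 0 counts in KMF at the limit set by 3 counts per library, and the colours give the copy each gene is known to be expressed from; all 5 genes of the Peg10 domain lie below 0 and 8 of 9 in the Kcnq1ot1 domain lie above it.

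Genes on a list of imprint maintenance and DNA methylation were counted as well, not all of which act on DNA methylation itself. The table listed 8 of 19. Each of the 8 was called higher in KMF, and their median change was 0.66 on the log2 scale, beside 49.7% of all fitted genes called higher and a median of -0.23. Almost every fitted gene was called, so only direction and size are described here. The paper reports cell cycle control among the top pathways raised in KMF. Whether the rise is particular to the genes of this list was not tested. Uhrf1, which brings the maintenance methyltransferase to newly copied DNA, had FPKM of 14.9, 15.3 and 8.89 in ID8 and 55.6, 44.3 and 66.6 in KMF, a difference of 2.13 ± 0.23 on the log2 scale (SE). Dnmt1, that methyltransferase, rose as well, by 1.19 ± 0.15, and stood at 14.3 ± 2.81 FPKM in ID8 and at 31.7 ± 2.70 FPKM in KMF (SD, n = 3 per line). Zfp57, which protects imprints, changed by 1.35 ± 0.23 and the helicase gene Hells by 0.80 ± 0.15 (log2 fold change ± SE). Values were 0.51 ± 0.09 for Eed, 0.36 ± 0.11 for Zfp445, 0.34 ± 0.08 for Setdb1 and 0.25 ± 0.07 for Ehmt1. With upper quartile scaling 6 of the 8 were called, without Zfp445 and Ehmt1, and Zfp445 overlapped between the lines in CPM. The other 11 genes, Dnmt3a, Dnmt3b and Trim28 among them, were not analysed here.

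Partners of the Sgce product in the sarcoglycan and dystrophin complex were listed for 9 of the 13 genes reported, Sgce included, with 8 called lower and 1 higher and a median log2 fold change of -1.69, beside 50.2% lower, 49.7% higher and a median of -0.23 over all fitted genes. These genes are not the whole complex, so the counts and the median describe only them. Sgce was chosen with its value known, so neither the counts nor the median is independent of that choice. Sgcz, the gene of zeta-sarcoglycan, had 47, 29 and 112 counts in ID8 and 0, 2 and 0 in KMF. Its log2 fold change of -6.27 was -5.52 without ID8 replicate 3, -5.58 without KMF replicate 3 and, with 0 counts left in KMF, -9.00 without KMF replicate 2. Sntb1, which encodes beta-1-syntrophin, a cytoplasmic adaptor of the complex, averaged 8.30 ± 2.37 FPKM in ID8 and 0.0433 ± 0.0377 FPKM in KMF (SD, n = 3 per line), from 783, 479 and 383 counts against 4, 0 and 5. Dtna and Dtnb, the dystrobrevin genes, had log2 fold changes of -1.99 ± 0.34 and -1.69 ± 0.08, Dmd (dystrophin) of -0.88 ± 0.08, Sntb2 of -0.48 ± 0.09 and Dag1 (dystroglycan) of -0.27 ± 0.09 (SE). The call of Dag1 was lost in 3 of 15 alternatives. Sspn (sarcospan) was higher by 1.00 ± 0.12 (log2, SE). Sgca, Sgcb, Sgcd and Utrn were not analysed here.

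**Figure D5:**
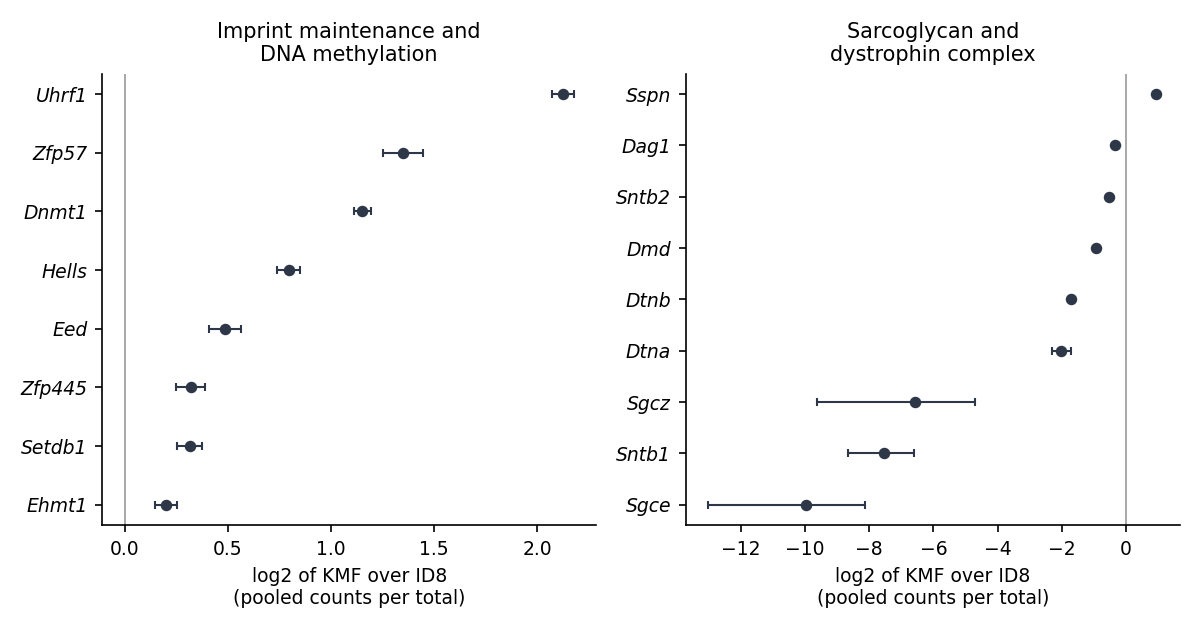
Log2 ratio of KMF to ID8 in pooled counts per library total (x axes, with different scales) for the 8 listed genes of imprint maintenance and DNA methylation (left) and the 9 reported genes of the sarcoglycan and dystrophin complex (right). Bars are 95% counting intervals; all genes on the left lie above 0, while Sgce, Sntb1 and Sgcz are lowest on the right.

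The genes of the table whose profiles over the 6 libraries were most like that of Sgce were 2210016F16Rik, Kcnip2, Kcnab1, Reep1 and Cbr1. Their root-mean-square difference from Sgce was 0.204 to 0.285 in log2(CPM + 0.5), each gene centred on its own mean. None of the 5 is on the imprinted list, but only 29 of the 7320 listed genes are, so nothing is read from that. Kcnip2 and Kcnab1 encode accessory subunits of potassium channels. For Peg3 they were Igfbp4, Osbp2, Pnliprp1, Tmem35 and Pcp4l1, at 0.493 to 0.703. Igfbp4, which encodes a binding protein of insulin-like growth factors, had 15678, 11905 and 17157 counts in ID8 and 57, 48 and 32 in KMF, so that unlike Peg3 it was still detected there. The offset of 0.5 CPM limits the difference that a gene near 0 counts can show, so likeness on this scale does not mean an equal fold. KMF counts were 0, 2 and 0 for Sgce but 20, 31 and 17 for Kcnab1, with 2120, 1440 and 1501 in ID8.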

How the data were processed

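RNA of 3 ID8 and 3 KMF tumorsphere cultures was enriched for poly-A and sequenced as paired-end reads. The authors' methods name TopHat2 for mapping, while the submitters' processing notes list CASAVA 1.8, STAR 2.5 and build mm10; which mapper made these counts, the annotation and the strand setting are not given in the sources used here. The deposited table holds raw read counts for each library and FPKM, which the authors scaled to gene length and library total, beside the listed gene length. It holds only genes that the authors had called different, and the columns of their comparison (fold changes and p-values) were not used. Library totals were recovered from count, FPKM and length, and of 7320 listed genes 7286 overlapped their GENCODE M21 (GRCm38) position.

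A model was fitted to the counts in edgeR 4.0.16 under R 4.3.3 (TMM on the listed genes, filterByExpr, glmQLFTest, two-sided, no covariate) and adjusted by Benjamini-Hochberg over the 6967 fitted genes. As genes outside the table are missing, that adjustment is lenient. Where KMF had 0 counts in all libraries, the fold is a lower bound from 3 counts per library; other ratios pool counts per line, with exact binomial 95% intervals that cover counting error only. The labels call the RNA samples of each line independent and give each its own passage, but each line is 1 line. SD measures the spread between cultures of that line. In the edgeR fit, SE is the absolute log2 fold change divided by the square root of the F statistic. That statistic uses a dispersion moderated across genes, so SE is not the spread of 1 gene alone. Neither SD nor SE covers other lines. The fit was tested on simulated data. Within a line, chi-square over its degrees of freedom was at least 19.9 between any pair of libraries, so none was a duplicate.

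The members and lists were chosen with earlier results of these data known. Some genes of the sarcoglycan and dystrophin complex are not reported here and were left out of its counts and median for reasons other than their values. Named genes are all members, the listed genes of the imprinted list and within 2 Mb of Sgce, called genes of both partner lists, the nearest listed gene on either side of the other members and the 5 nearest profiles of Sgce and Peg3. Alternatives used DESeq2 1.42.0, limma 3.58.1, other scalings and filters, a replicate block and each library left out. Other tools were Python 3.11.15, pandas 2.3.3, numpy 2.4.6, scipy 1.17.1 and matplotlib 3.10.9.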

Additional observations from a re-analysis of the deposited data

How the results depend on the processing

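No fitted member or list gene changed direction in the alternatives that could be run for it, 14 or 15 each. Ndn, Asb4, Ddc and Kdr were not in the main fit, and their values were not followed gene by gene. DESeq2 and the fit without a filter on low counts each gave 9 members lower and 1 higher. Both also gave 20 imprinted genes lower and 9 higher, and 6 genes within 2 Mb of Sgce lower and 1 higher. The share of all fitted genes called is given only for the main fit, 50.2% lower and 49.7% higher. Counts of calls in this section therefore describe the processing, and nothing about the members or lists is read from them. The requirement of at least 10 counts in every library removes genes that are nearly absent in KMF. It left 2 members called lower instead of 8, and 8 imprinted genes instead of 17. Within 2 Mb of Sgce it left 2 genes instead of 5, and in the sarcoglycan and dystrophin complex 5 instead of 8. With limma on log2(FPKM + 1), whose pseudocount shrinks low genes, 0 members were called higher instead of 1, as Kcnq1ot1 had a log2 fold change of 0.09; Ppp1r9a also missed the threshold there, at -0.17. Upper quartile scaling moved the median log2 fold change of all fitted genes from -0.23 to -0.35, and the requirement of 10 counts turned its sign, to 0.20 over the 6098 genes left. Leaving out single libraries gave 8 to 9 members called lower, in a table where the main fit called almost every gene. Adjustment over as many genes as GENCODE M21 annotates, added after seeing the data, left 8 members lower and 1 higher, 14 imprinted genes lower and 6 higher, and 6 genes of imprint maintenance higher. Replicate numbers do not pair the cultures (correlations of deviations 0.0765, -0.133 and 0.0882 for numbers 1 to 3). The replicate block gave 8 members lower and 1 higher, the counts of the main fit, without a share over all genes for that fit. Depth limits Plagl1, Ndn, Peg10, Ppp1r9a and H19, whose ID8 counts were at most 63.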
